A study of Rattus norvegicus with 6 samples.

Results

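The genes of the matrix metalloproteinases (MMPs), of the ADAM and ADAMTS proteases, of the ADAMTS-like proteins and of the tissue inhibitors of metalloproteinases (TIMPs) were examined in right ventricular (RV) tissue of rats. Members were chosen by name, as every gene whose symbol starts with Mmp, Timp or Adam followed by a digit, or with Adamts. This gave 42 of 12958 named genes, namely 11 MMP, 4 TIMP, 10 ADAM, 12 ADAMTS and 5 ADAMTS-like genes. Other family members, such as Adam10, Adam17, Mmp3, Mmp13 and Adamts5, were not among these named genes and were not analysed here. The study compared healthy control rats at day 0 (3 libraries) with Sugen hypoxia (SuHx) rats at 8 weeks with a decompensated RV (3 libraries). All were male and Sprague-Dawley, and the paper calls its rats adult with no age beyond that. SuHx rats had received SU5416, a drug that blocks the receptor of vascular endothelial growth factor, and weeks of hypoxia followed by normoxia, which brings about pulmonary hypertension and loads the RV. Controls had neither, and no control of the later time is among these libraries, so the passage of 8 weeks cannot be told apart from drug, hypoxia and pressure load. Library labels tie controls to numbers 1, 2 and 3, and the SuHx libraries are lettered A, B and C here.

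Most MMPs, ADAMs and ADAMTSs are enzymes that hold a zinc ion in the active site and cut proteins outside the cell. MMPs cut collagens and other matrix proteins, ADAMs are mostly membrane proteins that release the outer parts of receptors and growth factors, and ADAMTSs are secreted and cut proteoglycans, procollagens or von Willebrand factor. ADAMTS-like proteins resemble ADAMTSs but lack the protease domain. TIMPs bind the active site of these enzymes, and in the heart the balance between enzymes and inhibitors is known to bear on collagen turnover and on the dilatation of a loaded ventricle.

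The start regions of Timp1 and Adamtsl3, the members that rose in SuHx, and of Timp4, the TIMP whose values lay lower in SuHx in every library, are shown as RefSeq gives them for the rat assembly GRCr8. Each runs from 250 bases before to 50 after the annotated start, along the strand of the gene. All 42 members matched a RefSeq symbol, and 28 had such a region. Capitals mark TGAGTAA, a variant of the AP-1 letters TGANTCA that was added after the sequence was read, and CATTCC, the letters bound by TEAD factors, on either strand.
Timp1, chrX:3771073-3771372, minus strand: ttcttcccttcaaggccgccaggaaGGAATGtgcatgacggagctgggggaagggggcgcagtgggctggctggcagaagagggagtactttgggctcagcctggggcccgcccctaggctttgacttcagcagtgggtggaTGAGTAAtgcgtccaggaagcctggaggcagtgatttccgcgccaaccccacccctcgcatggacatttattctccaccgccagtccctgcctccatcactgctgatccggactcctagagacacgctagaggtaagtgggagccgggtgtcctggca
Adamtsl3, chr1:145697754-145698053, plus strand: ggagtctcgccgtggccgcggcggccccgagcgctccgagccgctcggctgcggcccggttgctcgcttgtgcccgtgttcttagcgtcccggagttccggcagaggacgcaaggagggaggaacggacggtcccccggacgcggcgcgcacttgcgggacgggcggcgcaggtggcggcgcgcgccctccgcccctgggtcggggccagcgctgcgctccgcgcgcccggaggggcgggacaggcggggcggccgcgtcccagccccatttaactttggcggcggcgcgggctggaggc
Timp4, chr4:149985155-149985454, minus strand: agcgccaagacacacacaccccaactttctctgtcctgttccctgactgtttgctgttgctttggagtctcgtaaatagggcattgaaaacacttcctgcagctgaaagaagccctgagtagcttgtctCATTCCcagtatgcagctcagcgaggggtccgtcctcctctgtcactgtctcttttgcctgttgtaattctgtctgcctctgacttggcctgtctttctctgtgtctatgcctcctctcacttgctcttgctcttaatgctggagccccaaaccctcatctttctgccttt

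TGAGTAA began 108 bases before the start of Timp1 and was found in 2.75% of 27457 start regions of the same length. CATTCC lay 225 bases before the start of Timp1 and 121 before that of Timp4, and 13.9% of all regions held it. The region of Adamtsl3 held none of the letters searched, and G and C made up 78.3% of it, against 61.3% in Timp1 and 50.3% in Timp4. Of the 28 members with a region, 2 held TGANTCA (Adam19 and Mmp12), 2 held TGAGTAA (Timp1 and Adamts13) and 3 held CATTCC (Timp1, Timp4 and Adamtsl4). TATAAA, the TATA box letters, was held by 5, GCGTG, the core bound by the aryl hydrocarbon receptor, by 12 and ACGTG, the core bound by hypoxia-inducible factors, by 6. Over all regions, TGANTCA was held by 7.33%, TATAAA by 14.3%, GCGTG by 31.1% and ACGTG by 19.7%. A match is a string of letters and not a site in use. Both strands were searched, and CACGTG holds ACGTG on both. In the same annotation Timp1 lies within the gene Syn1, Timp3 within Syn3 and Timp4 within Syn2. Syn1 was at most 6.68, Syn3 at most 4.49 and Syn2 at most 17.8 normalised counts in any library. Adam4 overlaps Cox16 and Adamts13 overlaps Cacfd1. The library preparation is not stated to mark strand, so reads of overlapping genes cannot be told apart where their transcripts coincide.

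Values are normalised counts, that is estimated reads per gene brought to a common scale by the authors. They are not divided by transcript length, so levels of different genes are not set against each other. Totals per library ran from 11607609 to 12393415 for the controls and from 12754296 to 18249330 for SuHx. Ventricular cardiomyocyte markers (8 of 8 listed, none at 0) summed to 657512 to 757755 in control and 485201 to 541087 in SuHx. Myh6, one of them, fell (log2 fold change -1.29, adjusted p = 0.043 from limma), and the other 7 did not pass. Without Myh6 the sums overlapped, at 280806 to 371163 and 319637 to 399411. Control 1 also held atrial markers, with a sum of 50544 normalised counts against 72.9 and 84.3 in controls 2 and 3. In SuHx that sum was 15530 to 17549, nearly all of it Nppa, a natriuretic peptide that a loaded ventricle also makes. Macrophage markers (7 of 8 listed, none at 0) summed to 944 to 1510 in control and to 1101, 2905 and 2828 in SuHx A, B and C. Fibroblast markers (7 of 7, none at 0) had overlapping sums, at 7119 to 13639 and 7063 to 11258, to which Dcn gave the most. Of these 7, Postn, a matrix protein of activated fibroblasts, rose (log2 fold change 1.96, adjusted p = 0.047 from limma) and the other 6 did not pass. Endothelial markers (5 of 6, none at 0) also overlapped, at 3649 to 6167 and 3328 to 4143. As a rough measure of RNA quality, the level of long transcripts (5 of 12 listed) was set against ribosomal protein genes. It was -0.50, -0.045 and -1.72 on the log2 scale for controls 1, 2 and 3, and 0.24, 0.51 and 0.69 for SuHx A, B and C. Among these 5, Utrn was itself called higher in SuHx (log2 fold change 2.89, adjusted p = 0.028 from limma), while Ryr2, Dst and Hspg2 did not pass and Dmd was too low to test. RNA quality and a change of these genes therefore cannot be told apart. The part of these shifts in the values of the members was not tested. In bulk tissue, fewer cells of a type and less RNA per cell cannot be told apart. The study's methods count RV tissues in each group, but no source used here ties each library to a separate rat, and p-values therefore measure only how these libraries spread, which may be technical.

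The test took in 31 members, those whose mean reached 10 normalised counts. With limma and a threshold of 0.05 on the adjusted p, SuHx was higher for 2 of these and lower for 0, and the remaining 29 did not pass. Timp1, an inhibitor of many MMPs, and Adamtsl3, a secreted matrix protein also known as punctin-2, were those that rose. Over all 10725 genes tested, 1.55% were higher, 0.671% were lower and 2.22% were called in either direction. At an unadjusted p under 0.05 there were 6 members higher and 5 lower (35.5% of the 31), against 9.61% higher, 7.59% lower and 17.2% in all over every gene tested. The libraries of the groups did not overlap for 6 members that were higher and 6 that were lower in SuHx (38.7%), against 12.9%, 11.6% and 24.6% of all genes tested. The median log2 fold change of the members was 0.26, with 19 above 0 and 12 below, and that of all genes was 0.0095. Of the 31, Adamts3 and Adamts13 reached the mean of 10 only through control. With every library brought to the same total, where the median of all genes was -0.31 and that of the members was -0.057, 1 member was higher (Timp1) and 2 were lower (Adamts15 and Timp4), against 90 and 191 of all genes.

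**Figure D1:**
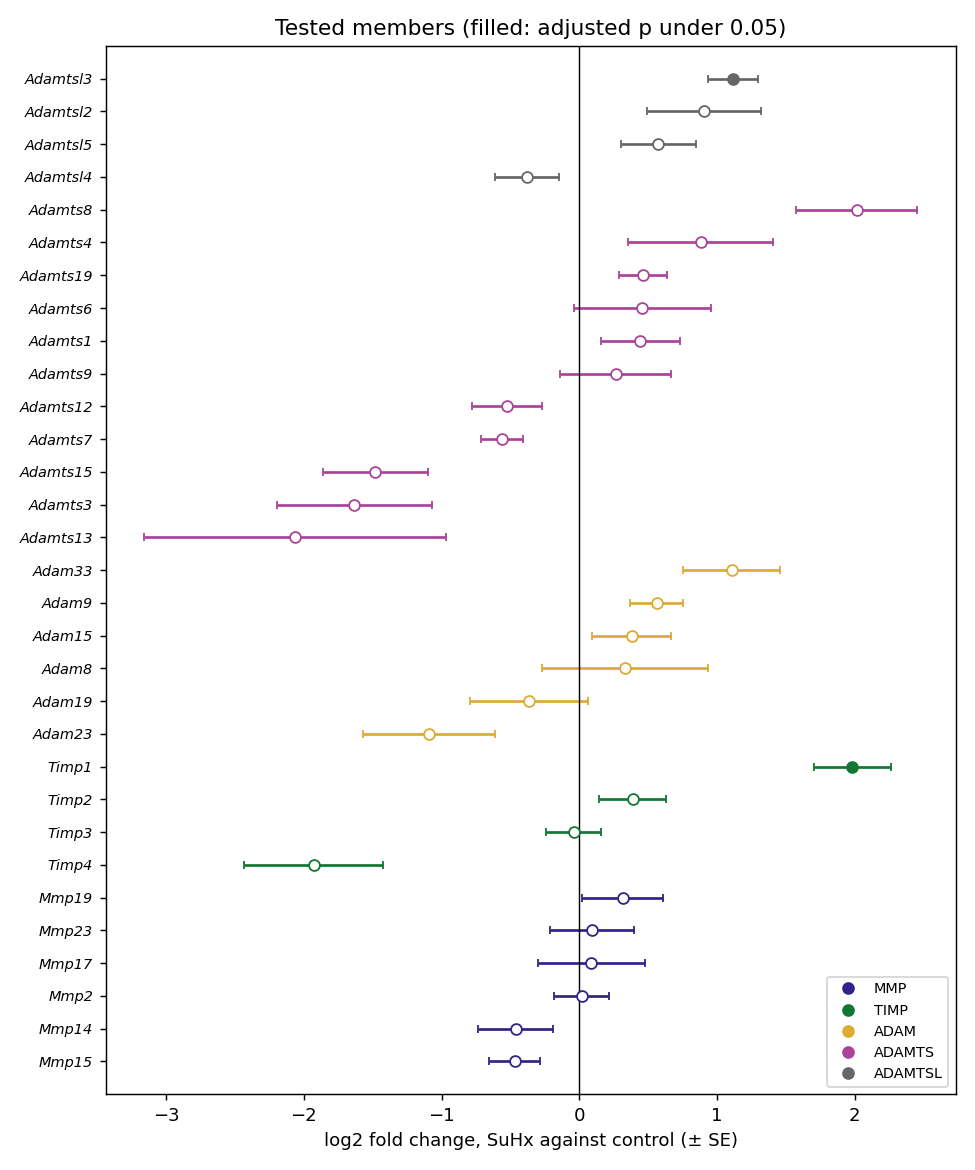
Log2 fold change of each tested member, SuHx against control, with its standard error (bars), on the log2(normalised count + 1) scale and grouped by family. The filled points are Timp1 at 1.98 and Adamtsl3 at 1.12, and the members with the lowest values are Adamts13 at -2.06 and Timp4 at -1.93.

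Of the 4 TIMPs, Timp1 rose in SuHx, while Timp2, Timp3 and Timp4 did not pass. Controls 1, 2 and 3 had 71.0, 40.6 and 77.5 normalised counts of Timp1, and SuHx A, B and C had 297, 227 and 213. The same order of libraries holds for all values that follow. Every SuHx library lay above every control, and the lowest of them was well over the highest control. The means were 63.0 ± 19.7 and 246 ± 44.9 (SD, n = 3 each), 3.90-fold apart, and limma gave a log2 fold change of 1.98 ± 0.28 (SE, adjusted p = 0.020). Timp4, the TIMP best known for its expression in heart muscle, had 183, 338 and 803 normalised counts in the controls, against 127, 95.6 and 72.5 in SuHx. The groups did not overlap, but the controls spread widely, with control 3 far above the others. The log2 fold change of Timp4 was -1.93 ± 0.50 (SE, adjusted p = 0.11 in limma), and -1.36 without control 3 (adjusted p = 0.078). Timp2, which also takes part in the activation of MMP-2, had 1527, 1028 and 850.2 in the controls, against 1180, 1531 and 1653 in SuHx. These ranges overlapped, and the log2 fold change of 0.39 had a 95% interval of -0.18 to 0.95. Timp3, which stays bound to the matrix, had 931, 866 and 828 normalised counts in the controls, against 635, 1018 and 947 in SuHx. Its SuHx libraries lay on both sides of the controls, with a log2 fold change of -0.041 (95% interval -0.50 to 0.42). With every library at the same total, Timp1 kept its call (log2 fold change 1.67, adjusted p = 0.026 from limma) and Timp4 gained one (-2.25, adjusted p = 0.032).

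**Figure D2:**
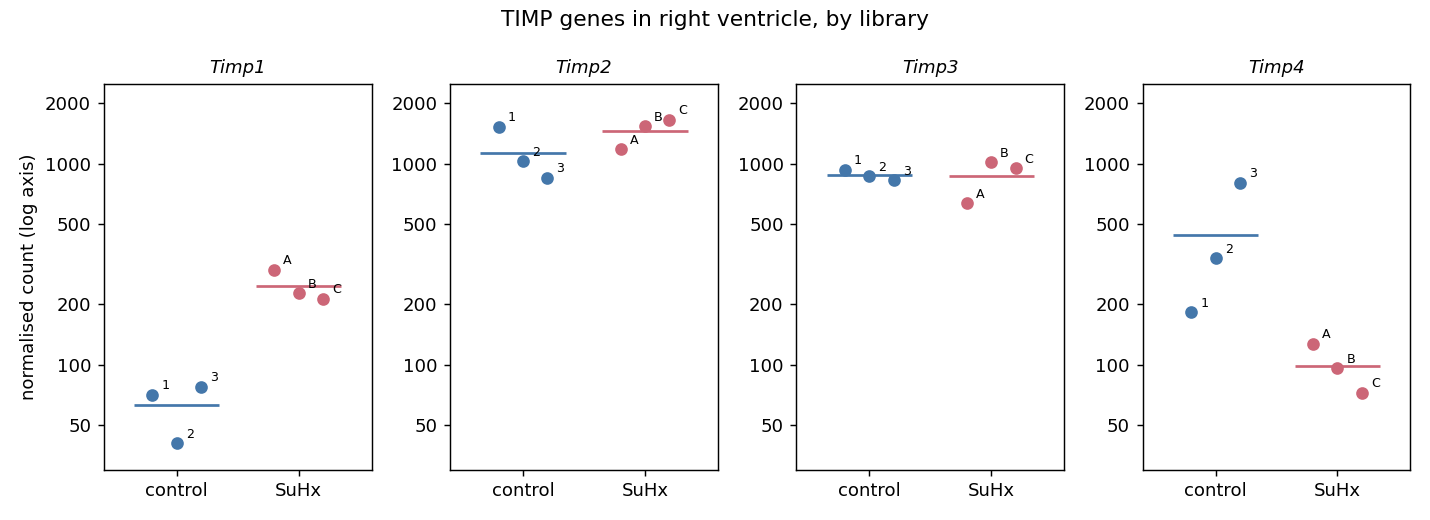
Normalised counts of the 4 TIMP genes on a log axis, with a point for each library (1 to 3 control, A to C SuHx) and a line at each group mean. Timp1 was higher in all 3 SuHx libraries (213 to 297 against 40.6 to 77.5), Timp4 was lower in all 3 (72.5 to 127 against 183 to 803), and Timp2 and Timp3 overlapped.

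Ratios of members within a library do not depend on how the libraries were scaled. The pairs were picked after their values were seen, so they are descriptions with no test. Timp1 over Timp4 was 0.39, 0.12 and 0.096 in the controls, against 2.34, 2.38 and 2.93 in SuHx. All 3 SuHx ratios lay far above the highest control. As a share of the summed counts of the 4 TIMPs, Timp1 made up 1.79% to 3.03% in control and 7.37% to 13.3% in SuHx, and Timp4 made up 6.73% to 31.4% and 2.51% to 5.67%. Such shares are not per transcript length and show how each gene's part moved, not which transcript was most abundant. Timp1 over Mmp2 was 0.035, 0.027 and 0.061 in controls and 0.20, 0.15 and 0.12 in SuHx. Timp2 over Mmp14, the inhibitor and the membrane protease that together activate MMP-2, was 3.51, 3.60 and 2.97 in controls and 3.86, 5.80 and 9.85 in SuHx. Those groups did not overlap, although SuHx A lay close to control 2.

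**Figure D3:**
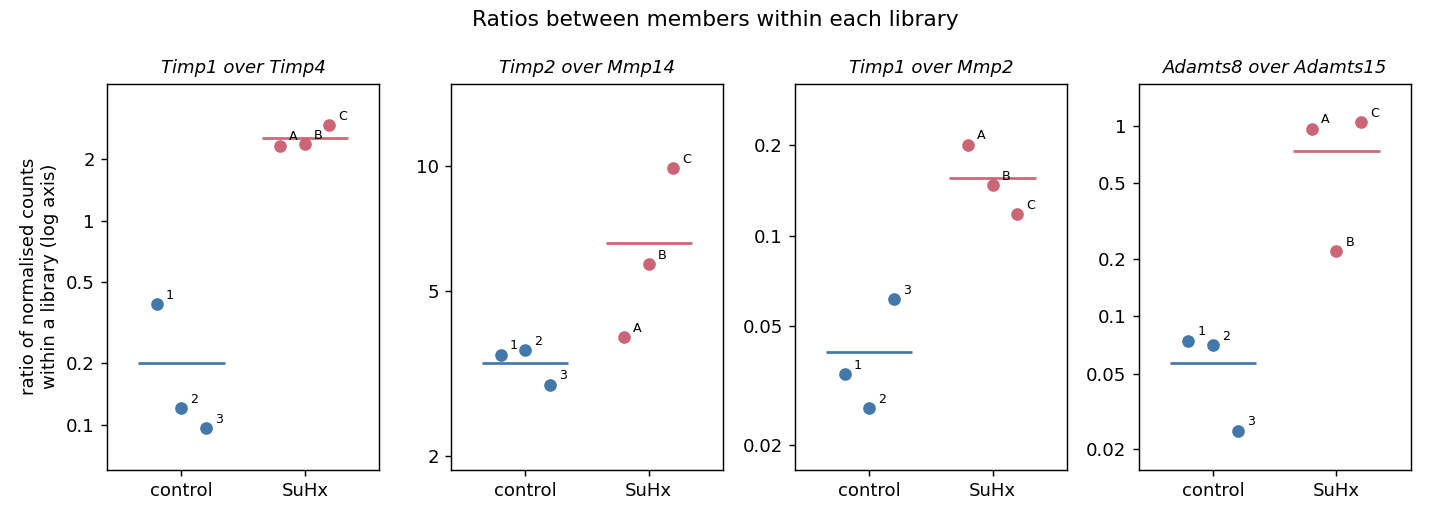
Ratios of normalised counts within each library, on log axes, with a point for each library and a line at each group mean. Timp1 over Timp4 ran from 0.096 to 0.39 in control and from 2.34 to 2.93 in SuHx, and for each of the other ratios the SuHx libraries also lay above the controls.

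Of the 6 MMPs tested, none passed the test in either direction with limma. An unadjusted p under 0.05 was found for 1 (16.7%), near the 17.2% of all genes tested. Mmp2, a gelatinase that cuts denatured and basement membrane collagen, had 2055, 1529 and 1263 normalised counts in the controls, against 1479, 1545 and 1804 in SuHx. The SuHx values lay inside the range of the controls, with a log2 fold change of 0.018 (95% interval -0.45 to 0.49), whose sign changed when control 2, control 3 or SuHx C was left out. Mmp15, a membrane-type MMP, had 1046, 963 and 917 normalised counts in the controls, against 883, 564 and 697 in SuHx. Its groups did not overlap, though SuHx A lay near control 3, and the log2 fold change was -0.47 ± 0.19 (SE, adjusted p = 0.26 in limma). Mmp14, the membrane-type activator of MMP-2, had 435, 285 and 286 in the controls, against 305, 264 and 168 in SuHx, with a log2 fold change of -0.46 (limma adjusted p = 0.44). Control 1 was high among these and the groups overlapped. Mmp17, Mmp19 and Mmp23 had log2 fold changes of 0.088, 0.31 and 0.092 and overlapped between groups.

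Of the 6 ADAMs tested, none passed limma's test, and 2 had an unadjusted p under 0.05 (33.3%, against 17.2% of all genes tested). Adam9, a membrane sheddase, had 447, 470 and 307 normalised counts in the controls, against 638, 573 and 568 in SuHx. All SuHx libraries lay above the controls, with a log2 fold change of 0.56 ± 0.19 (SE, adjusted p = 0.20 in limma). Adam33, known from mesenchymal cells, had 69.2, 25.8 and 44.5 in the controls, against 107, 96.0 and 80.7 in SuHx. The groups did not overlap, and control 1 was the control nearest to SuHx (log2 fold change 1.11 ± 0.35 SE, limma adjusted p = 0.17). Adam23, which lacks protease activity and binds partners at the cell surface, had 55.0, 33.3 and 28.8 in the controls, against 8.50, 21.5 and 26.7 in SuHx (log2 fold change -1.09, adjusted p = 0.31 from limma). Control 3 and SuHx C lay almost side by side, so the separation rests on a small gap. Adam15 had 338, 369 and 731 in the controls, against 617, 568 and 577 in SuHx. Control 3 was above every SuHx library, and without it the log2 fold change went from 0.38 to 0.73 (adjusted p = 0.029 from limma). Adam19, known for its part in heart development in the mouse, had 3161, 2366 and 926 in the controls, against 1832, 1452 and 1226 in SuHx. The controls spread on both sides of SuHx, with a log2 fold change of -0.36 (limma adjusted p = 0.71). Adam8, a gene of leukocytes, overlapped between groups at a log2 fold change of 0.33.

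None of the 11 ADAMTSs tested passed limma's test. The groups did not overlap for 5 of them (24.6% of all genes), and the same number had an unadjusted p under 0.05 (17.2% of all genes). These 5 include Adamts3, which reached the mean of 10 only through control, where it is high. Among those that cut proteoglycans, Adamts8 had 24.7, 16.7 and 9.93 normalised counts in the controls, against 103, 43.0 and 70.6 in SuHx. The means of 17.1 ± 7.39 and 72.1 ± 29.9 (SD, n = 3 each) were 4.22-fold apart, with a log2 fold change of 2.01 ± 0.44 (SE, adjusted p = 0.069 in limma), and Adamts8 passed when library weights were estimated (adjusted p = 0.048). Adamts15 had 332, 236 and 397 in the controls, against 106, 195 and 67.7 in SuHx. The groups did not overlap, with SuHx B nearest to the controls, and the log2 fold change was -1.48 ± 0.38 (SE, adjusted p = 0.11 in limma). Adamts15 gained a call when every library had the same total (-1.80, adjusted p = 0.018). Adamts8 and Adamts15 are neighbours on rat chromosome 8, with 0 protein-coding genes between them in GRCr8. Adamts8 over Adamts15 was 0.074, 0.070 and 0.025 in the controls, against 0.97, 0.22 and 1.04 in SuHx.

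Adamts1, which cuts versican, had 513, 454 and 980.1 normalised counts in the controls, against 755, 932 and 815 in SuHx. Control 3 was again above every SuHx library, and without it the log2 fold change was 0.78 (adjusted p = 0.035 from limma), against 0.44 (adjusted p = 0.48) with it. Adamts9 and Adamts4, also proteoglycan-cutting, overlapped between groups at log2 fold changes of 0.26 and 0.88, as did Adamts6 at 0.46. Adamts3, which removes the N-terminal propeptide of procollagen and activates VEGF-C, had 21.3, 29.2 and 15.9 in the controls, against 9.26, 8.59 and 2.86 in SuHx. The groups did not overlap at these low values, and the log2 fold change was -1.63 ± 0.56 (SE, adjusted p = 0.21 in limma). Adamts7, a protease of cartilage oligomeric matrix protein, had 416, 437 and 462 normalised counts in the controls, against 348, 273 and 275 in SuHx. The spread within each group was small and the log2 fold change was -0.56 ± 0.15 (SE, adjusted p = 0.12 in limma). Adamts12, which cuts the same protein, had a log2 fold change of -0.52, and SuHx B at 331 lay among the controls at 307 to 356. Adamts19, linked to heart valve disease in humans, had 235, 163 and 195 in the controls, against 272, 277 and 261 in SuHx (log2 fold change 0.46 ± 0.17 SE, limma adjusted p = 0.24). Its 3 SuHx libraries lay close together above the controls. Adamts13, the protease of von Willebrand factor, had 15.1, 9.74 and 45.6 in the controls, against 0, 6.52 and 13.7 in SuHx. An exact 0 here can be a failed estimate, and SuHx C lay above control 2.

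**Figure D4:**
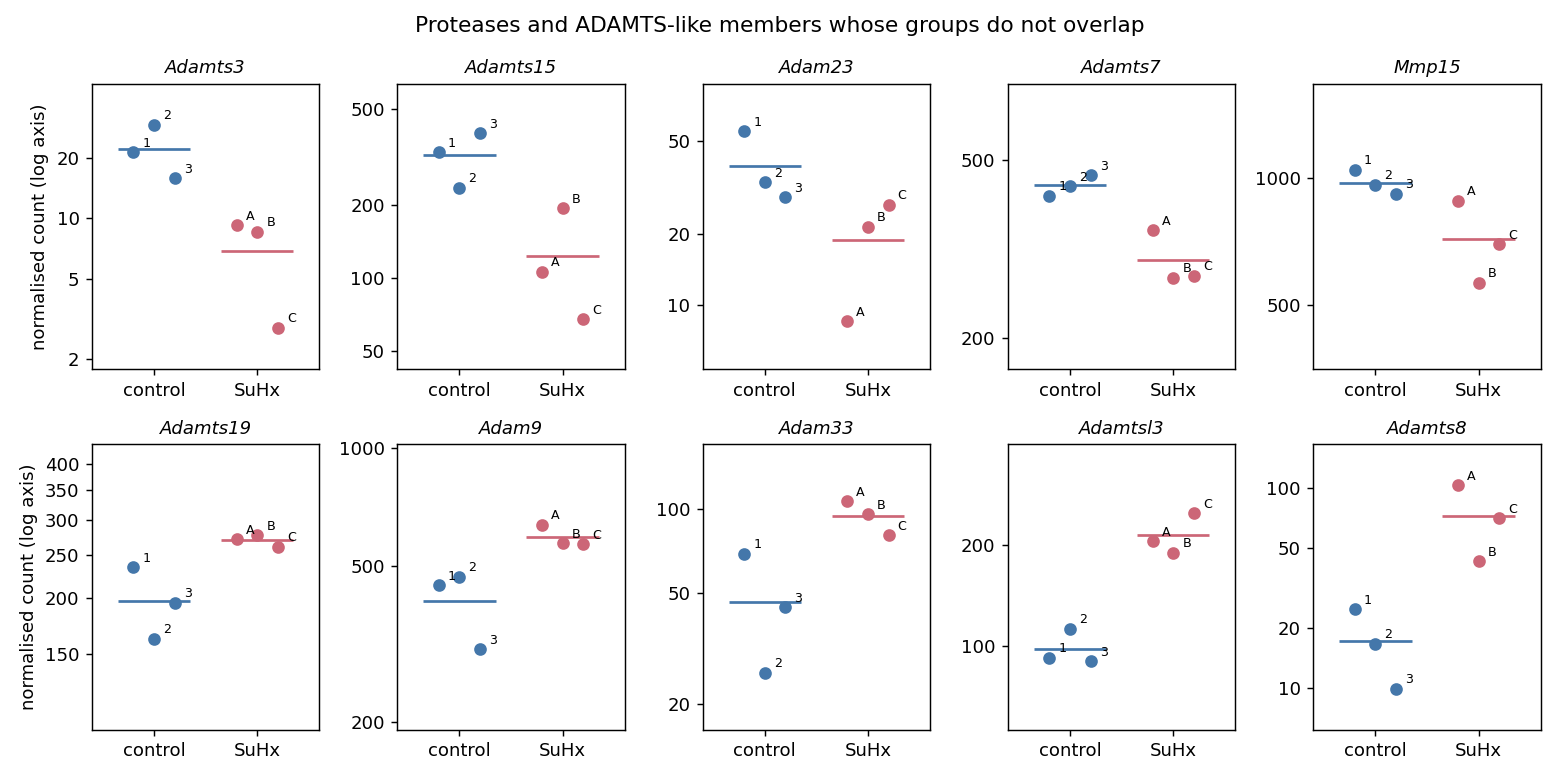
Normalised counts, on log axes with their own ranges, of the 10 protease and ADAMTS-like genes with a mean of at least 10 whose groups do not overlap, with a point for each library and a line at each group mean. The panels run from Adamts3 (log2 fold change -1.63) to Adamts8 (2.01), and the smallest gaps are those of Adam23 (28.8 against 26.7) and Mmp15 (917 against 883).

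Of the 4 ADAMTS-like genes tested, Adamtsl3 rose and the others did not pass. Adamtsl3 had 92.2, 113 and 90.2 normalised counts in the controls, against 205, 190 and 249 in SuHx. Both groups were tight, and the lowest SuHx library lay well above control 2, the highest control. The means were 98.3 ± 12.3 and 215 ± 30.7 (SD, n = 3 each), 2.18-fold apart, with a log2 fold change of 1.12 ± 0.18 (SE, adjusted p = 0.031 in limma). The call was lost with every library at the same total (0.80, limma adjusted p = 0.16) and when the mean-variance trend was left out of limma (adjusted p = 0.055). Adamtsl2, which binds fibrillin-1 and is mutated in geleophysic dysplasia in humans, had 273, 86.5 and 148 in the controls, against 261, 392 and 226 in SuHx. Control 1 lay inside the SuHx range, and the log2 fold change was 0.90 (adjusted p = 0.32 from limma). Adamtsl4, another partner of fibrillin microfibrils, had 1017, 926 and 1488 in the controls, against 828, 715 and 1080 in SuHx (log2 fold change -0.38, adjusted p = 0.45 from limma), with overlapping groups. Adamtsl5 had a log2 fold change of 0.57 (limma adjusted p = 0.34).

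For each member whose groups did not overlap, the exact permutation test of 3 against 3 libraries gave p = 0.1 (two-sided), the smallest that it can give. The calls depended on which libraries were kept. Timp1 passed without control 1, 2 or 3 in turn (adjusted p = 0.038, 0.032 and 0.014 from limma), and did not pass without SuHx A, B or C (adjusted p = 0.086, 0.070 and 0.087). Its log2 fold change was 1.70 to 2.16 in these 6 fits. Adamtsl3 passed without control 3 (adjusted p = 0.035 from limma) and in no other fit with a library left out (adjusted p = 0.057 to 0.14), at log2 fold changes of 1.01 to 1.22. Without control 3, where 4 members passed, Adam15 and Adamts1 joined Timp1 and Adamtsl3. Without SuHx A, B or C, 0 members passed. The calls over all genes moved in the same way, from 166 higher and 72 lower to 266 and 136 without control 3, to 34 and 21 when SuHx A was left out, to 36 and 19 when SuHx B was, and to 11 and 6 when SuHx C was. Without controls 1 and 3 together, Timp1 passed (log2 fold change 2.55, adjusted p = 0.025 from limma) and Adamtsl3 did not (0.92, adjusted p = 0.16). Each of these fits compares fewer libraries than the full one.

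**Figure D5:**
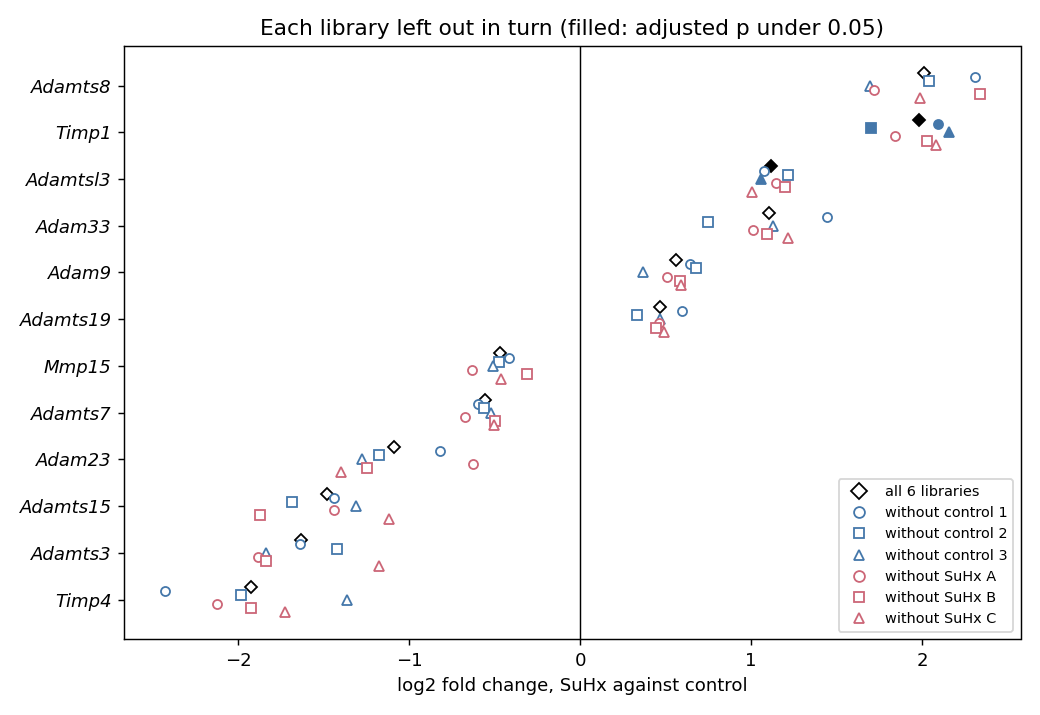
Log2 fold change of the 12 tested members whose groups do not overlap, with all 6 libraries (diamond) and with each library left out in turn (blue for controls, red for SuHx), filled where the adjusted p was under 0.05. The value of Timp4 ran from -2.43 without control 1 to -1.36 without control 3, and filled points occur for Timp1 and Adamtsl3.

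The 11 members left out of the test, since their mean was under 10 normalised counts, were Mmp8, Mmp9, Mmp12, Mmp16, Mmp24, Adam4, Adam11, Adam12, Adam32, Adamts17 and Adamtsl1. Mmp9, a gelatinase of leukocytes, had 1.12, 1.04 and 0.99 in the controls, against 3.86, 5.16 and 0 in SuHx. Mmp12, the macrophage elastase, had 1.12, 0 and 1.99 in the controls, against 1.55, 10.3 and 3.81 in SuHx. Mmp8, the neutrophil collagenase, had 2.24, 4.17 and 3.97 in the controls, against 1.55, 14.6 and 2.86 in SuHx. For Mmp12, Mmp8 and Mmp9, the highest value was that of SuHx B. Macrophage markers summed to nearly as much in SuHx C as in SuHx B. Neutrophil markers (3 of 5 listed) summed to 16.4, 67.8 and 29.5 in SuHx and 11.2 to 39.4 in control, highest in control 3. The part of either cell type in the values of these members was not tested. Adam4 had 6.73, 15.6 and 6.96 in the controls, against 5.41, 4.30 and 4.77 in SuHx, and Adam32 at 0, 0 and 0.99 in controls and 1.55, 4.30 and 1.91 in SuHx. For Adam4 and Adam32 the groups did not overlap, as was so for 24.6% of all genes tested. The other 6 overlapped, and no library held any of the 11 above 17.3. Adam4 lies within Cox16, which had 72.1, 66.7 and 79.4 in the controls, against 50.1, 66.8 and 48.6 in SuHx. The part of Cox16 reads in the values of Adam4 was not tested. Differences at these low values could not be resolved.

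Genes that act with the proteases were counted from lists of partners, sister enzymes and substrates, beside which stand 2.22% of all genes called and 17.2% with an unadjusted p under 0.05. Of 16 tested partners and regulators, limma called 1 as higher and 0 as lower, and 15 were not called, with a median log2 fold change of -0.068. The gene that rose was Thbs1, whose protein binds MMP-2 and MMP-9 and activates latent TGF-beta. Thbs1 had 225, 246 and 394 normalised counts in the controls, against 673, 799 and 850 in SuHx, with no overlap (log2 fold change 1.46 ± 0.23 SE, limma adjusted p = 0.029). Of 3 tested genes of the sister astacin family and its enhancers, 1 was higher and 0 were lower. Pcolce, which enhances the cleavage of procollagen by BMP-1, had 217, 224 and 229 in the controls, against 494, 356 and 534 in SuHx (log2 fold change 1.02 ± 0.18 SE, limma adjusted p = 0.039). Bmp1 itself had a log2 fold change of -0.079 (limma adjusted p = 0.89). Of 14 tested matrix substrates, 0 passed in either direction with limma, while 3 that were higher and 1 that was lower had an unadjusted p under 0.05, and the median log2 fold change was 0.36. Of 15 tested substrates shed from membranes, 0 passed, while 4 that were higher and 0 that were lower had an unadjusted p under 0.05, and the median was 0.29.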

How the data were processed

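Total RNA of RV tissue was sequenced after TruSeq library preparation. The authors mapped and counted reads with Salmon 0.14.1 on an index that the paper names as built from mouse GRCm38.p6 files, and normalised with DESeq2 1.24.0. How far rat reads that differ from mouse sequence were missed was not tested. The deposited values are a normalised signal per gene and library, not whole counts, so no count test was run. The paper states a common read depth per sample, but the depth of each single library is not given. An entry with no gene name, 0.00143% to 0.00514% of a library, was left out. Names, gene order and start regions came from RefSeq GRCr8 and no coordinates of the files were used.

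Genes were tested where their mean over the 6 libraries reached 10, which left 10725. Groups were compared on log2(normalised count + 1) in limma 3.58.1 (R 4.3.3), with a mean-variance trend, two-sided, with Benjamini-Hochberg adjustment over all 10725. Fold changes on this scale understate those of low genes. The procedure was tested on simulated data. Named members were the TIMPs, those with an unadjusted p under 0.05 or groups without overlap, and the 2 of highest mean in each role list. Others are named to account for every member. Members and lists were chosen with earlier results of these data known. Alternatives covered the pseudocount, the filter, rescaling (trimmed mean of M values (TMM), median of ratios, same totals), the trend, robust moderation, library weights and libraries left out. Figures were drawn with matplotlib 3.10.9.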

Additional observations from a re-analysis of the deposited data

How the results depend on the processing

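The 2 members that were higher and the 0 that were lower were also counted with a pseudocount of 0.5 or 10, with no filter or a mean of at least 50, with TMM or median-of-ratios rescaling and with robust moderation. With library weights 3 were higher. With the same total in every library 1 was higher and 2 were lower, with no mean-variance trend 1 was higher, and without controls 1 and 3 together 1 was higher. With each library left out in turn, 0 to 4 members were higher and 0 were lower, while 11 to 266 of all genes were higher and 6 to 136 were lower. Of 25 named members, 20 kept 1 direction over all 17 alternatives. With the same total, Mmp2 had a log2 fold change of -0.30, Mmp23 of -0.22 and Adamts9 of -0.057, and with library weights Mmp2 had one of -0.071, each of the opposite sign to the value as deposited. With each library left out, values ran from -0.14 to 0.21 for Mmp2, -0.093 to 0.33 for Mmp23, -0.091 to 0.59 for Adamts9, -0.88 to 0.0028 for Adam19 and -0.17 to 0.17 for Timp3. The cause was not tested. No paired analysis was possible because the columns of SuHx values could not be tied to the numbered SuHx samples. No source used here states that a control and a SuHx sample with the same number form a pair, so a paired design is not known to exist. With 3 libraries a group and no depth in reads for each library, changes of low or variable members could not be resolved.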
